A study of Mus musculus with 42 samples.

Results

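Conventional CD4+ T cells (Tconv) held in culture with the anti-CD3 antibody KT3 were compared between 24 h and 72 h of stimulation. The comparison rests on 4 of the 42 arrays in the series, 2 at each time, chosen by their titles and paired by array number. The cells came from spleens of NOD mice, a strain prone to autoimmune diabetes, that carried the Foxp3-IRES-GFP allele on both copies (+/+), so that GFP marks cells expressing Foxp3, the transcription factor of regulatory T cells (Treg). Whole splenocytes were cultured with 1.25 µg/ml KT3, and Tconv were then sorted as CD4+ GFP- cells lacking B220, CD8a, CD11b and CD11c. The arrays numbered 1 came from a female of 9 weeks and those numbered 2 from a male of 14 weeks, and number cannot be told apart from sex or age. The labels do not say whether the 24 h and 72 h samples of a number came from 1 mouse. The p-values below reflect the spread among arrays, part of which may be technical. No culture without KT3 enters the comparison, so time in culture and time with KT3 cannot be told apart. For reference, 4 Treg arrays of the same culture labels and times and 4 Tconv arrays from spleens 24 h or 72 h after intravenous KT3 were used. The latter mice were NOD Foxp3-IRES-GFP females of 8 weeks, with cells single sorted on the arrays numbered 1 and double sorted on those numbered 2.

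An antibody against CD3 engages the T cell receptor complex and starts signalling through calcium and NFAT, the MAP kinases and NF-kB. Stimulated CD4+ T cells then make and sense interleukin 2, whose receptor acts through JAK kinases and STAT5, take up more amino acids, build ribosomes and enter the cell cycle. Replication genes are expressed before mitosis genes in each cycle, and many early signalling genes are switched off again by feedback.

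All levels below are log2 intensities from the deposited table, and all differences are 72 h minus 24 h in log2 units with the standard error of the limma fit, so that 1 unit is a doubling. A gene was called changed when its Benjamini-Hochberg adjusted p over the 12425 genes tested was below 0.05. The 4 arrays compared had median intensities of 94.1 and 100.4 at 24 h and 97.1 and 104.6 at 72 h, with interquartile ranges of 2.29 to 2.51 log2 units. Another array of the series, Tconv at 0 h in culture numbered 1, stood apart with a range of 1.645 and a mean correlation with the other arrays of 0.787, against 0.947 to 0.96 for the 4 arrays compared. It enters the step from 24 h to 72 h only through the shared estimate of spread. The 0 h levels of Tconv in culture given below include it.

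The sorted cells carried the T cell genes of their label. The 9 measured T cell identity genes averaged 11.04 and 10.99 at 24 h and differed at 72 h by -0.02 and 0.01 in the pairs numbered 1 and 2. Cd4 read 10.99 and 11.16 at 24 h and 11.02 and 11.06 at 72 h, and Cd3e read 11.39 and 11.30, then 11.28 and 11.29. Foxp3 read 7.62 and 7.38 at 24 h and 7.73 and 7.21 at 72 h in Tconv, where the culture Treg arrays of these times read 11.82 to 12.00. The labels list the gate of the culture Treg arrays as GFP- as well, and their Foxp3 levels go against that entry. Marker means of B cells (6.0 and 6.14, then 6.07 and 6.0), neutrophils (5.82 and 5.78, then 5.78 and 5.88) and NK cells (4.09 and 4.03, then 4.15 and 4.07) moved by -0.14 to 0.11 between the times within a pair. Dendritic and erythroid markers moved by -0.08 to 0.07.

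Markers of other cells moved more in at least 1 pair. The 2 CD8 T cell markers moved by -0.27 and -0.04 in the pairs numbered 1 and 2, and the 4 platelet markers by 0.21 and 0.09. The 7 measured macrophage and monocyte markers averaged 5.95 and 6.17 at 24 h and 6.42 and 6.46 at 72 h. Of the 7, 3 lay higher and 0 lower on both 72 h arrays (14.4% and 21.9% of all genes tested). Lyz2, the lysozyme of macrophages, read 5.17 and 6.24 at 24 h and 7.69 and 7.50 at 72 h (1.89 ± 0.56, limma adjusted p = 0.234), while Csf1r (0.05 ± 0.28) and Cd68 (0.08 ± 0.22) differed little. The 4 plasma cell markers averaged 5.72 and 5.67, then 5.96 and 6.26, led by the antibody joining chain Jchain at 4.25 and 4.27, then 5.05 and 6.18 (1.36 ± 0.56, adjusted p = 0.633). None of these markers was called, and their part in the results below was not tested. In sorted bulk samples, fewer cells of a type and less RNA per cell cannot be told apart.

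Between 24 h and 72 h, 34 of the 12425 genes changed (0.274%), 22 higher (0.177%) and 12 lower (0.0966%) at 72 h. The genes that rose were led by the granule gene Nkg7, the chemokine receptor gene Cxcr5, the transcription factor gene Myb and genes of mitosis. Those that fell were led by the cytokine signalling inhibitor gene Cish, the chemokine receptor gene Ccr8 and the growth factor binding protein gene Igfbp4. The difference was at least 1 log2 unit in 30 of the 34. All 34 moved the same way in both pairs of arrays and did not overlap between the times, which alone is common: over all genes tested, both 72 h arrays were above both 24 h arrays in 14.4% and below them in 21.9%. At an unadjusted p under 0.05 there were 761 of the 12425 genes, both directions together. Below, counts of called list members stand against 0.177% higher and 0.0966% lower, and unadjusted counts against these 761 genes. Without the array number as a block 13 genes were called, all among the 34. With culture arrays only 3 were called, and Ccr8, Ccnb2 and Cxcr5 were not among them (limma adjusted p = 0.0586 each). Cish, Ccr8 and Ccnb2 were called whichever of the 4 arrays was left out. Among the fits that left out 1 of the 4, Myb and Cxcr5 lost the call only without the 24 h array numbered 1. The other called genes lost it without at least 2 of the 4 arrays, so that for them the statements below rest on all 4 arrays. Other scalings ended some calls as well: H1f5, Nfkbid, Slc7a5 and Cars were not called after quantile normalization (adjusted p = 0.061, 0.072, 0.248 and 0.131), and H1f5, Nfkbid, Mettl1, Sox4, Cxcr4, Tox, Rab19, Kif23 and Tifa were not after median centring. Counts without each array were 4 and 22 for the 24 h arrays numbered 1 and 2, and 11 and 7 for the 72 h arrays. Without the 0 h array that stood apart the same 34 genes were called among 115, of which 73 were lower, so that the larger share of rising genes turned to a larger share of falling ones (64.7% against 36.5% higher).

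**Figure D1:**
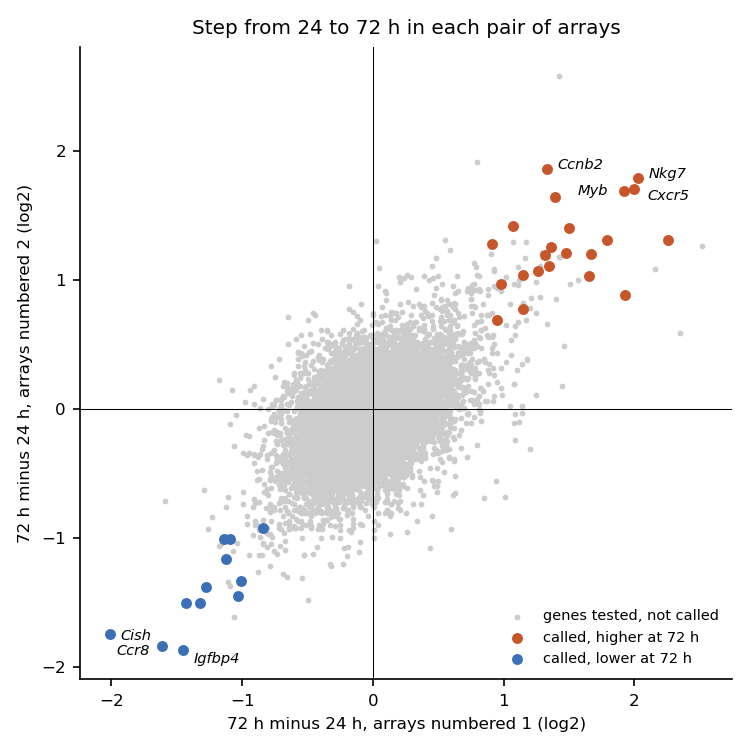
Difference between 72 h and 24 h in log2 units in the arrays numbered 1 (horizontal axis) and numbered 2 (vertical axis), 1 point per gene tested (grey), with genes called higher in orange and called lower in blue. The 22 orange points lie in the upper right and the 12 blue points in the lower left, so that each called gene moved the same way in both pairs; across all 12425 genes, which are not independent replicates, the pairs correlated at r = 0.51.

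**Figure D2:**
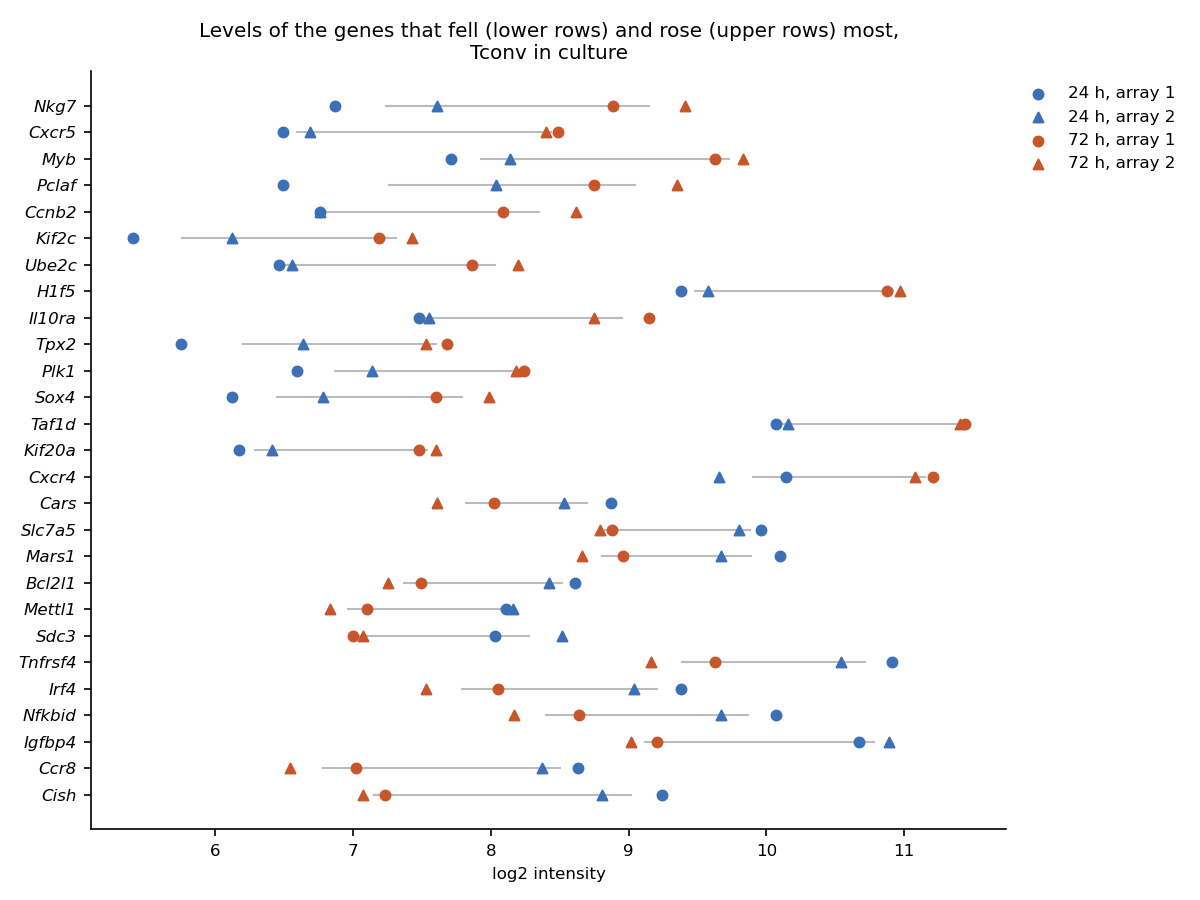
Log2 intensity of the genes with the largest called changes on each of the 4 arrays, with 24 h in blue and 72 h in orange, circles for arrays numbered 1 and triangles for those numbered 2, and a grey line joining the means. In each row the orange points lie on one side of the blue points, to the right for the upper 15 genes and to the left for the lower 12.

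The genes of mitosis were the largest group to rise. Of the 24 listed genes of mitosis 23 were tested, and 7 rose and 0 fell (background 0.177% higher and 0.0966% lower): Ccnb2, Ube2c, Tpx2, Plk1, Kif20a, Kif23 and Cdc20. The median difference of the list was 0.82, against -0.04 over all genes tested, with medians of 0.93 and 0.74 in the pairs numbered 1 and 2. Of the 23 genes 22 had a positive difference, and 17 did not overlap between the times, all higher at 72 h (14.4% of all genes tested). Of these, 3 genes (Ccnb2, Kif20a and Kif23) were also called without the block. The promoters of 4 genes of cell division that rose are shown because the genes moved together. Each is the 250 bases before the first start of transcription listed for the gene, from RefSeq with build GRCm38.p6. They run 5′ to 3′ on the gene's strand, and other starts of a gene were not examined. Capitals mark CCAAT (or ATTGG, its reverse complement), the box bound by NF-Y, and TTTGAA (or TTCAAA). The latter is the core sequence of the cell cycle genes homology region of G2 and M phase genes.
Ccnb2, chr9:70421555-70421804, minus strand: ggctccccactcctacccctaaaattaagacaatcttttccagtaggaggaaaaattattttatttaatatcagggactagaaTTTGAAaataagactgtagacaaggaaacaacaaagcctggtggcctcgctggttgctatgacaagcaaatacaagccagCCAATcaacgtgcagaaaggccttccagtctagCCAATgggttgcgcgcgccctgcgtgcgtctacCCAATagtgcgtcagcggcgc
Ube2c, chr2:164769679-164769928, plus strand: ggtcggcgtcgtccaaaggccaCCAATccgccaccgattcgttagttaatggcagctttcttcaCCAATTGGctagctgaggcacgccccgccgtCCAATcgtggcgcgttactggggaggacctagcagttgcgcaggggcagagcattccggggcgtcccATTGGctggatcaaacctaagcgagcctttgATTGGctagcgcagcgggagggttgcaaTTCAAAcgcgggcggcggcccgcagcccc
Plk1, chr7:122159185-122159434, plus strand: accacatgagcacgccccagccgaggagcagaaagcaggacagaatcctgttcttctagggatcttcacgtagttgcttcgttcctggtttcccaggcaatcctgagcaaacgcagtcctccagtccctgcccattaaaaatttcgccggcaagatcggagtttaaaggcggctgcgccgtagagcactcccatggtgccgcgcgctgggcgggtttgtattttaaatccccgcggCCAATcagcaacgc
Kif2c, chr4:117178773-117179022, minus strand: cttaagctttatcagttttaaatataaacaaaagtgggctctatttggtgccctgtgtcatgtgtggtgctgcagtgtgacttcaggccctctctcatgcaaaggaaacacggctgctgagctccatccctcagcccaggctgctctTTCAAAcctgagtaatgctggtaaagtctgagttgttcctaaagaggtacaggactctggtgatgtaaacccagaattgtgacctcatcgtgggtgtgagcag

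The Ccnb2 promoter held 3 CCAAT matches and 1 TTTGAA match, which lay upstream of all 3. The Ube2c promoter held 6 and 1, where CCAATTGG holds a match on each strand and counts as 2, the Plk1 promoter 1 and 0, and the Kif2c promoter 0 and 1. Of the 19 tested mitosis genes with an entry in the promoter table, called or not, 16 held at least 1 CCAAT (84.2%). At least 2 were held by 10 (52.6%) and a TTTGAA by 7 (36.8%). The shares were 33.8%, 10.1% and 16% of all 32851 promoters of the same length. The sets are unlike: the 19 were taken at the first start listed, and the 32851 count every start and are not limited to tested genes. The matches are letters in a window, found on both strands, and not binding sites measured here.

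Ccnb2 encodes cyclin B2, a partner of the kinase that drives entry into mitosis. It read 6.76 on both 24 h arrays and 8.09 and 8.62 at 72 h, a rise of 1.59 ± 0.21 (limma adjusted p = 0.000381, and 0.0198 without the block). Both 72 h arrays stood more than 1 unit above both 24 h arrays.

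Ube2c, the ubiquitin-conjugating enzyme of the anaphase-promoting complex, read 6.46 and 6.56, then 7.86 and 8.20 (1.52 ± 0.27, adjusted p = 0.00826, and 0.0699 without the block). Plk1, a kinase of spindle assembly and mitotic exit, read 6.59 and 7.14, then 8.24 and 8.18 (1.34 ± 0.24, adjusted p = 0.00764, and 0.303 without the block). The arrays numbered 1 carried the larger rise for Plk1, from the lower 24 h level. Tpx2, a spindle assembly factor, read 5.75 and 6.64, then 7.68 and 7.53 (1.41 ± 0.26, adjusted p = 0.00995, and 0.0503 without the block).

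Kif20a, a kinesin of cytokinesis, read 6.17 and 6.41, then 7.48 and 7.60 (1.25 ± 0.20, adjusted p = 0.00303). Kif23, another kinesin of the midbody, read 5.80 and 6.35, then 6.94 and 7.39 (1.10 ± 0.23, adjusted p = 0.0291). Cdc20, the activator of the anaphase-promoting complex, read 7.32 and 7.68, then 8.27 and 8.37 (0.82 ± 0.16, adjusted p = 0.0133, and 0.0644 without the block). In all of these genes the lowest 72 h array lay above the highest 24 h array.

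The other 16 genes of mitosis were not called. Ccna2, cyclin A2, read 6.29 and 7.07, then 7.72 and 8.25 (1.30 ± 0.33, adjusted p = 0.13), and the proliferation marker Mki67 read 6.04 and 6.95, then 6.84 and 7.99 (0.92 ± 0.27, adjusted p = 0.209), with its groups overlapping. At the lower end were Anln (-0.06 ± 0.27), a scaffold of the cleavage furrow, and the centromere genes Cenpf (0.09 ± 0.26) and Cenpe (0.15 ± 0.37). These 3 are among 7 of the 23 genes that lay below the array median on all 4 arrays compared.

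Outside the list, further genes of division and chromatin rose. Kif2c, a kinesin that shortens microtubules at centromeres, read 5.40 and 6.12, then 7.19 and 7.43 (1.55 ± 0.27, adjusted p = 0.00573, and 0.121 without the block). Pclaf, a partner of the replication clamp PCNA, read 6.49 and 8.04, then 8.75 and 9.35 (1.79 ± 0.35, adjusted p = 0.0143, and 0.204 without the block). Its 24 h arrays differed by more than 1 unit from each other, and the difference ran from 0.93 to 2.64 when arrays were left out. Pttg1, securin, read 6.73 and 6.72, then 7.64 and 8.00 (1.09 ± 0.19, adjusted p = 0.00677). H1f5, a linker histone, read 9.38 and 9.58, then 10.88 and 10.97 (1.45 ± 0.32, adjusted p = 0.0496, and 0.454 without the block). Its arrays of 1 time lay close together, while the standard error is estimated over all groups of the series.

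Genes of DNA replication, which are expressed before mitosis genes in a cycle, gave no such count. Of 23 tested 0 were called by limma (3 lower and 1 higher at an unadjusted p under 0.05), their median was -0.29, and 11 of the 23 lay below their 24 h levels on both 72 h arrays while 1 lay above (21.9% and 14.4% of all genes tested). The helicase subunit gene Mcm2 read 9.86 and 10.16, then 9.39 and 9.24 (-0.69 ± 0.21, adjusted p = 0.265). Pold1, the catalytic subunit of a replicative polymerase, read 8.88 and 8.86, then 8.38 and 7.97 (-0.70 ± 0.16, adjusted p = 0.0567). Rrm2, a subunit of the enzyme that makes deoxynucleotides, was at the other end with 7.0 and 7.95, then 8.18 and 8.34 (0.79 ± 0.28, adjusted p = 0.484). The 22 tested genes of G1 cyclins, E2F factors and CDK inhibitors had 0 called (1 lower at an unadjusted p under 0.05) and a median of 0.06.

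**Figure D3:**
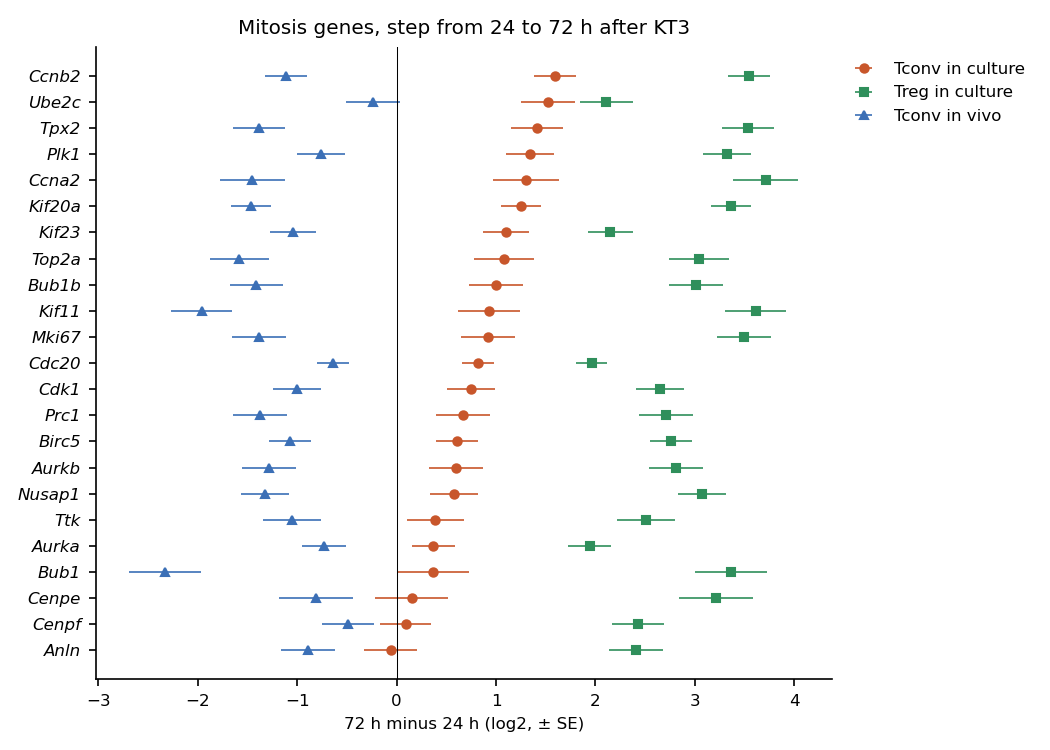
Difference between 72 h and 24 h after KT3 in log2 units, with the standard error of the limma fit, for the 23 mitosis genes tested, in Tconv in culture (orange circles), Treg in culture (green squares) and Tconv in vivo (blue triangles). The green points lie right of the orange points in each row, and the blue points lie left of 0 and of the orange points.

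The rise of mitosis genes was smaller than that in Treg from cultures of the same labels, and opposite in sign to the change in vivo. The mean level of the 23 genes in Tconv in culture was 6.07 at 0 h, 5.99 at 2 h, 5.89 at 8 h, 6.17 at 24 h and 6.98 at 72 h. In Treg in culture it was 6.29 at 24 h and 9.19 at 72 h, and in Tconv in vivo 8.17 at 24 h and 7.01 at 72 h. The difference between the 2 cell types' steps, tested as an interaction in the limma fit, was called lower in Tconv for 21 of the 23 genes (1.56% of all genes tested). The difference between the steps in culture and in vivo was called higher in culture for 18 of the 23 (0.757% of all genes tested). Of the 23 genes 14 passed the filter on the 4 arrays compared. The others, among them the 7 genes dim on all 4 arrays, were tested only with the help of other groups. Of the 14 genes that passed it, 12 were called lower than in Treg and 13 higher than in vivo. Over all 10116 genes that passed it, 120 were called lower than in Treg and 68 higher than in vivo. For Ccnb2 the steps were 1.59 in Tconv in culture, 3.54 in Treg in culture and -1.11 in Tconv in vivo. Ube2c had the smallest gap to Treg among the 7 called genes, with steps of 1.52 and 2.11 (difference -0.60 ± 0.39, adjusted p = 0.781).

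For some replication genes the step differed from that of Treg as well. Their median step was -0.29 in Tconv, 1.08 in Treg and -1.11 in Tconv in vivo. Of the 23 genes 12 were called lower in Tconv than in Treg (1.56% of all genes tested). In culture 3 were called higher than in vivo (0.757% of all genes tested). The steps of Tconv in culture enter both differences, which are therefore not independent of each other.

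Among genes of cytokine signalling, Cish had the smallest adjusted p of all. Cish encodes an SH2 protein that STAT5 induces and that dampens cytokine receptor signalling. It read 9.24 and 8.81 at 24 h and 7.23 and 7.07 at 72 h, a fall of 1.88 ± 0.22 on the log2 scale (-1.88, limma adjusted p = 0.000146, and 0.000168 without the block). It was called in each of the 10 other settings and the 4 fits that left out an array. The first 30 transcribed bases of Cish, from the first start listed (RefSeq, GRCm38.p6), are shown because they hold 2 matches to TTCNNNGAA. This palindrome, in capitals, is bound by STAT proteins.
Cish, chr9:107296659-107296688, plus strand: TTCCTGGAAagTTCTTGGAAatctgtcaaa

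Within the first 50 transcribed bases, 377 of the 32851 promoter entries held at least 1 such match on either strand (1.15%) and 4 held at least 2 (0.0122%). In the 250 bases before the start 7.02% of the entries held at least 1. The stretch of Cish was chosen for its matches, so that these shares are not a test. Binding was not measured here.

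Cish read lower at 72 h than at 0 h on the arrays of both numbers, a difference that was not tested. The arrays numbered 1 and 2 read 7.55 (on the array that stood apart) and 7.86 at 0 h, 9.28 and 9.28 at 2 h, and 9.18 and 8.76 at 8 h. Treg in culture fell by a like amount (-1.80 ± 0.22) from a higher level, with 10.52 and 10.35 at 24 h and 8.77 and 8.51 at 72 h. In Tconv in vivo Cish was already at 6.91 and 7.26 at 24 h, and its step of 0.47 ± 0.22 was not called. The step in culture was lower than that in vivo (difference -2.35 ± 0.31, limma adjusted p = 0.000139).

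The other 13 tested genes of the JAK-STAT and SOCS list were not called. The median of the 14 was -0.24, and 8 lay lower on both 72 h arrays (21.9% of all genes tested). The kinase genes Pim1 (11.23 and 11.17, then 10.19 and 10.14; -1.04 ± 0.27, adjusted p = 0.13) and Pim2 (-0.96 ± 0.25, adjusted p = 0.13), both known targets of STAT5, had the next largest differences. Il2ra, the alpha chain of the interleukin 2 receptor, read 8.21 and 7.89, then 7.10 and 7.21 (-0.89 ± 0.29, adjusted p = 0.324). Of the 15 cytokine genes tested 0 were called by limma (3 lower at an unadjusted p under 0.05), and Il2 itself read 5.76 and 5.82, then 5.41 and 5.06 (-0.55 ± 0.25, adjusted p = 0.757).

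Bcl2l1, which encodes the survival protein Bcl-xL, read 8.61 and 8.42 at 24 h and 7.49 and 7.25 at 72 h (-1.14 ± 0.21, limma adjusted p = 0.0113, and 0.11 without the block). Of 17 tested genes of the BCL2 and caspase list it was the only one called, where 0.0966% of all genes tested were called lower. Its time course peaked at 8 h with 9.48 and 8.76, from 7.51 and 7.34 at 0 h. The step in Treg was nearly the same (-1.17 ± 0.21), whereas in vivo it was 0.29 ± 0.21 (difference -1.44 ± 0.30, adjusted p = 0.0127, and 0.0911 without the block).

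Of the genes that the T cell receptor induces early, Irf4 and Nfkbid fell. Irf4, a transcription factor whose level follows receptor signal, read 9.38 and 9.04 at 24 h and 8.05 and 7.53 at 72 h (-1.41 ± 0.27, adjusted p = 0.012). From 5.91 and 6.10 at 0 h it had reached a mean of 10.74 at 8 h. In vivo the step was of like size (-1.44 ± 0.27), and in Treg in culture it was -0.04 ± 0.27 (difference -1.37 ± 0.38, adjusted p = 0.0633).

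Nfkbid, a nuclear inhibitor and cofactor of NF-kB, read 10.07 and 9.67, then 8.64 and 8.17 (-1.46 ± 0.31, adjusted p = 0.0294, and 0.0587 without the block). It was the only called member of 14 tested genes of the NF-kB and NFAT pathway, of which 10 lay lower on both 72 h arrays (21.9% of all genes tested) and whose median was -0.37. The subunit gene Nfkb2 read 10.29 and 9.98, then 9.48 and 9.36 (-0.72 ± 0.18, adjusted p = 0.12). Of the 19 tested genes of the early receptor response Irf4 was the only one called, and the median was -0.15. The 15 tested MAP kinase and G protein feedback genes had 0 called and a median of 0.13. On both 72 h arrays 8 of them lay higher and 1 lower (14.4% and 21.9% of all genes tested). The largest change in that list was a fall of the phosphatase gene Dusp5, a feedback inhibitor of ERK. It read 10.40 and 9.99, then 9.29 and 8.65 (-1.22 ± 0.32, limma adjusted p = 0.133).

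Among surface receptors, Ccr8 and Tnfrsf4 fell while Cxcr5, Cxcr4 and Il10ra rose. Ccr8, a chemokine receptor of activated and regulatory T cells, read 8.63 and 8.37 at 24 h and 7.02 and 6.54 at 72 h (-1.72 ± 0.25, limma adjusted p = 0.00139, and 0.0393 without the block). It had risen from 5.92 and 5.33 at 0 h to 9.92 and 9.21 at 2 h. In Treg in culture it read 10.28 and 10.08, then 10.54 and 10.05, and the steps differed by -1.83 ± 0.35 (adjusted p = 0.004, and 0.0668 without the block).

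Cxcr5, the receptor for the follicle chemokine CXCL13, read 6.49 and 6.69 at 24 h and 8.49 and 8.40 at 72 h (1.85 ± 0.27, adjusted p = 0.00139, and 0.0198 without the block). At 0, 2 and 8 h its arrays had read between 5.53 and 6.15, so that 72 h was the highest time measured. Its step was above that of Treg (0.33; difference 1.52 ± 0.38, adjusted p = 0.0293, and 0.179 without the block) and that in vivo (-0.49; difference 2.34 ± 0.38, adjusted p = 0.000872). The call on the difference from Treg was also lost after median centring, with culture arrays only and without some of the arrays compared. Over the fits that left out an array, that difference ran from 1.28 to 1.77. In vivo the level was 8.97 and 8.55 at 24 h and 8.40 and 8.15 at 72 h, so that the culture arrays came to the in vivo level at 72 h.

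Cxcr4, the receptor for CXCL12, read 10.14 and 9.66, then 11.21 and 11.08 (1.25 ± 0.24, adjusted p = 0.0134, and 0.313 without the block). The 24 h arrays were the lowest of its time course, after 10.69 and 11.42 at 0 h and 12.33 and 11.87 at 2 h. Its step was 1.93 ± 0.34 above that of Treg (adjusted p = 0.00173, and 0.0545 without the block), where the level went from 11.16 and 10.85 to 10.48 and 10.16. Of the 21 tested chemokine receptors and integrins 2 rose and 1 fell (0.177% and 0.0966% of all genes tested), and Cxcr6 read 5.55 and 6.64, then 7.90 and 7.23 (1.47 ± 0.33, adjusted p = 0.0563).

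Il10ra, the ligand-binding chain of the interleukin 10 receptor, read 7.48 and 7.55, then 9.15 and 8.75 (1.44 ± 0.23, adjusted p = 0.00303, and 0.0198 without the block). It was the only called member of 23 tested cytokine receptors, whose median was 0.01. At 8 h it had been at 6.18 and 6.70. The step was above that of Treg by 1.61 ± 0.33 (limma adjusted p = 0.00598) and above that in vivo by 1.64 ± 0.33 (adjusted p = 0.00706). Both calls were lost without 1 or more of the arrays compared. Over the fits that left out an array, the 2 differences were as low as 1.38 and 1.36.

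Tnfrsf4, the costimulatory receptor OX40, read 10.91 and 10.54, then 9.63 and 9.16 (-1.33 ± 0.23, adjusted p = 0.00589, and 0.148 without the block). At 0 h it had been at 7.80 and 7.40, so that at 72 h it was still above its starting level. Tnfrsf18, the related receptor GITR, read 10.96 and 10.80, then 10.04 and 9.83 (-0.95 ± 0.25, adjusted p = 0.133). Tnfrsf9, 4-1BB, differed little (-0.27 ± 0.25). Of 19 tested costimulation and TNF superfamily genes 1 fell and 0 rose (0.0966% and 0.177% of all genes tested), and of 12 inhibitory receptors and ligands 0 were called (1 higher at an unadjusted p under 0.05), with Tigit at 0.74 ± 0.28 (adjusted p = 0.541).

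**Figure D4:**
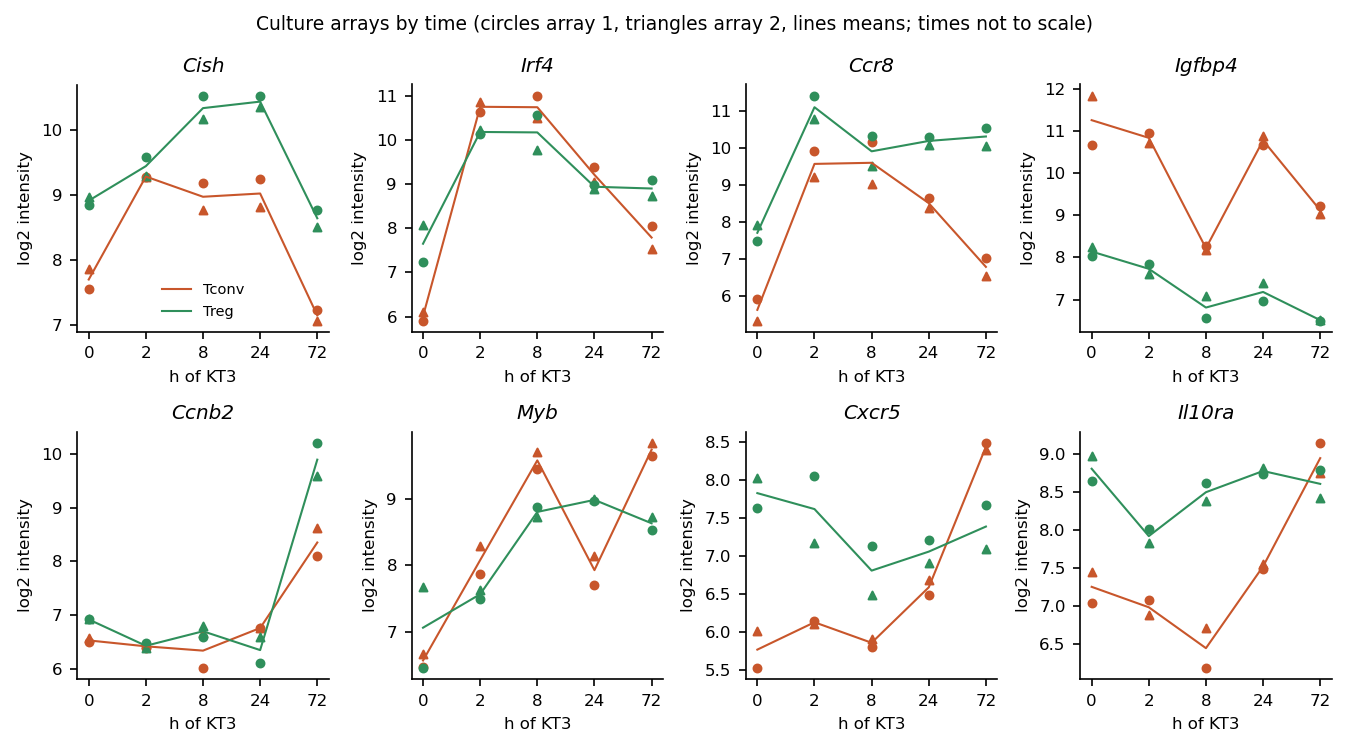
Log2 intensity of 8 called genes at 0, 2, 8, 24 and 72 h of KT3 in culture (times not drawn to scale), with Tconv in orange and Treg in green, circles for arrays numbered 1, triangles for arrays numbered 2 and lines through the means. Cish, Irf4 and Ccr8 are high in Tconv from 2 h to 24 h and lower at 72 h, Ccnb2, Cxcr5 and Il10ra are highest in Tconv at 72 h, Myb is high at 8 h and 72 h, and Igfbp4 is low at 8 h and high again at 24 h.

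Transcription factors and differentiation genes included 3 that rose. Myb, a regulator of progenitor and memory-type lymphocytes, read 7.71 and 8.14 at 24 h and 9.63 and 9.83 at 72 h (1.80 ± 0.27, limma adjusted p = 0.00194, and 0.0198 without the block). It had already been at 9.44 and 9.69 at 8 h, from 6.48 and 6.68 at 0 h, so that its 24 h level was a low point between 2 high ones. In Treg it read 8.96 and 9.00, then 8.53 and 8.73, and the steps differed by 2.15 ± 0.38 (adjusted p = 0.0019).

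Sox4, an HMG-box factor, read 6.12 and 6.78, then 7.60 and 7.99 (1.34 ± 0.27, adjusted p = 0.02, and 0.12 without the block). Tox, a factor of T cell development and of persistently stimulated T cells, read 7.39 and 7.78, then 8.54 and 8.56 (0.96 ± 0.21, adjusted p = 0.0412, and 0.156 without the block). Tox was the only called member of 19 tested lineage and differentiation factors, whose median was 0.14. Ikzf2, Helios, read 6.54 and 6.87, then 7.71 and 8.15 (1.23 ± 0.29, adjusted p = 0.0763), and passed the threshold after quantile normalization (adjusted p = 0.0404). The call on Tox was lost after median centring (adjusted p = 0.191) and with no filter (adjusted p = 0.0547), and that on Sox4 after median centring (adjusted p = 0.0821). Eomes (1.00 ± 0.28, adjusted p = 0.197), Bcl6 (0.48 ± 0.31, adjusted p = 0.994), Tbx21 (-0.94, adjusted p = 0.484) and Gata3 (-0.80, adjusted p = 0.746) were not called.

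Nkg7, a membrane protein of cytotoxic granules, had the largest called rise. It read 6.87 and 7.61 at 24 h and 8.89 and 9.41 at 72 h (1.91 ± 0.31, adjusted p = 0.00303, and 0.0644 without the block). The other 9 tested cytotoxic genes were not called, with Gzmb at -0.21 ± 0.34 and Prf1 at 0.19, and the 5 NK cell markers were below the filter on dim genes. Nkg7 rose in Treg as well (2.16 ± 0.31), and the steps differed by -0.25 ± 0.44.

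Further risers were Taf1d, Myo1e, Tifa and Rab19. Taf1d, a subunit of the promoter selectivity factor of RNA polymerase I, read 10.07 and 10.16, then 11.44 and 11.41 (1.31 ± 0.22, adjusted p = 0.0043, and 0.0198 without the block). Myo1e, a class I myosin, read 6.50 and 6.24, then 7.77 and 7.31 (1.17 ± 0.19, adjusted p = 0.00303). Tifa, an adaptor of TRAF proteins, read 5.21 and 5.65, then 6.56 and 6.76 (1.23 ± 0.26, adjusted p = 0.0291). Rab19, a small GTPase, read 7.22 and 7.38, then 8.20 and 8.36 (0.98 ± 0.20, adjusted p = 0.0291). The last 3 were not called without the block (adjusted p = 0.156, 0.602 and 0.158). The largest difference of any gene, in Ctla2a, an inhibitor of cysteine proteases, was not called: it read 5.50 and 5.35, then 6.92 and 7.93 (2.00 ± 0.45, adjusted p = 0.0576).

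Genes of amino acid supply and tRNA charging included 4 that fell, Slc7a5, Mars1, Cars and Mettl1. Slc7a5, the transporter of large neutral amino acids, read 9.96 and 9.80, then 8.88 and 8.79 (-1.05 ± 0.22, limma adjusted p = 0.0293, and 0.454 without the block). It had been at 11.09 and 10.60 at 8 h and 8.84 and 8.62 at 0 h, so that 72 h was near the start. Slc7a5 was the only called member of 21 tested genes of the ATF4 and amino acid response, of which 12 lay lower and 3 higher on both 72 h arrays (21.9% and 14.4% of all genes tested; median -0.40). Asns, asparagine synthetase, read 8.33 and 7.22, then 6.74 and 6.52 (-1.15 ± 0.27, adjusted p = 0.0907). Shmt2, an enzyme of mitochondrial one-carbon metabolism, read 9.83 and 9.58, then 8.65 and 8.52 (-1.12 ± 0.29, adjusted p = 0.141).

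Mars1 and Cars, which charge tRNAs with methionine and cysteine, both fell. Mars1 read 10.10 and 9.67, then 8.96 and 8.66 (-1.07 ± 0.20, adjusted p = 0.0133, and 0.137 without the block), and Cars read 8.87 and 8.53, then 8.02 and 7.61 (-0.88 ± 0.19, adjusted p = 0.0306, and 0.14 without the block). In a list of cytoplasmic aminoacyl-tRNA synthetases made after these values were seen, all 18 tested had negative differences, from -1.07 to -0.12 with a median of -0.43, and 14 lay lower on both 72 h arrays (21.9% of all genes tested). These 2 were the called ones. Mettl1, which methylates tRNAs, read 8.11 and 8.16, then 7.10 and 6.83 (-1.17 ± 0.24, adjusted p = 0.0242, and 0.0499 without the block).

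Of the 19 tested ribosome biogenesis genes 0 were called by limma. At an unadjusted p under 0.05 there were 9 lower (761 of all 12425 genes in both directions). All 19 were lower at 72 h in both pairs, where 38.3% of all genes tested were lower and 26.9% higher in both. Their differences ran from -0.92 to -0.28, with a median of -0.53. Polr1b, a core subunit of RNA polymerase I, read 8.94 and 8.86, then 8.09 and 7.87 (-0.92 ± 0.23, adjusted p = 0.108), and Rrp9, a processing factor, read 9.26 and 9.00, then 8.30 and 8.11 (-0.92 ± 0.25, adjusted p = 0.171). The mean level of the list was 8.03 at 0 h (with the array that stood apart), 8.78 at 2 h, 10.02 at 8 h, 9.01 at 24 h and 8.46 at 72 h. Over all genes tested it was 7.54, 7.74, 7.70, 7.75 and 7.71 at these times. Without the 0 h array that stood apart 3 of the 19 were called lower (0.588% of all genes tested), Rrp9 among them (adjusted p = 0.0138).

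Interferon-stimulated genes gave 0 calls by limma as well, with 11 of 20 lower at an unadjusted p under 0.05 (761 of all 12425 genes in both directions). Of the 20 tested 19 had negative differences and 13 lay lower on both 72 h arrays (21.9% of all genes tested), and the median was -0.65. Without the 0 h array that stood apart 3 were called lower, Irf7, Oas3 and Bst2 (adjusted p = 0.0252, 0.026 and 0.0322). Ifit3, an antiviral protein, read 7.48 and 9.27, then 6.42 and 7.66 (-1.33 ± 0.47, adjusted p = 0.466): the arrays numbered 2 were the higher at both times, so that the groups overlapped although each pair fell. Irf7 read 9.95 and 10.25, then 9.00 and 9.11 (-1.04 ± 0.26, adjusted p = 0.107), and Oas3 read 8.42 and 8.67, then 7.52 and 7.77 (-0.90 ± 0.20, adjusted p = 0.0576). In Treg in culture the median step was -1.01, with 13 of the 20 called lower (2% of all genes tested there, and 3.57% higher).

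Igfbp4 and Sdc3 complete the genes that fell. Igfbp4, a binding protein of insulin-like growth factors, read 10.67 and 10.89 at 24 h and 9.21 and 9.02 at 72 h (-1.66 ± 0.28, adjusted p = 0.00483, and 0.0198 without the block). It had read 10.67 (on the array that stood apart) and 11.84 at 0 h and 8.27 and 8.17 at 8 h. The level was thus low at 8 h, higher at 24 h and lower again at 72 h. In the arrays numbered 2 the 24 h level stayed below that at 0 h. In vivo its step was 0.31 ± 0.28 (difference -1.98 ± 0.40, adjusted p = 0.00867). Sdc3, a heparan sulfate proteoglycan, read 8.03 and 8.52, then 7.0 and 7.07 (-1.24 ± 0.21, adjusted p = 0.00483, and 0.11 without the block). It had been between 6.82 and 7.37 at 0, 2 and 8 h, so that 24 h was its highest time.

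**Figure D5:**
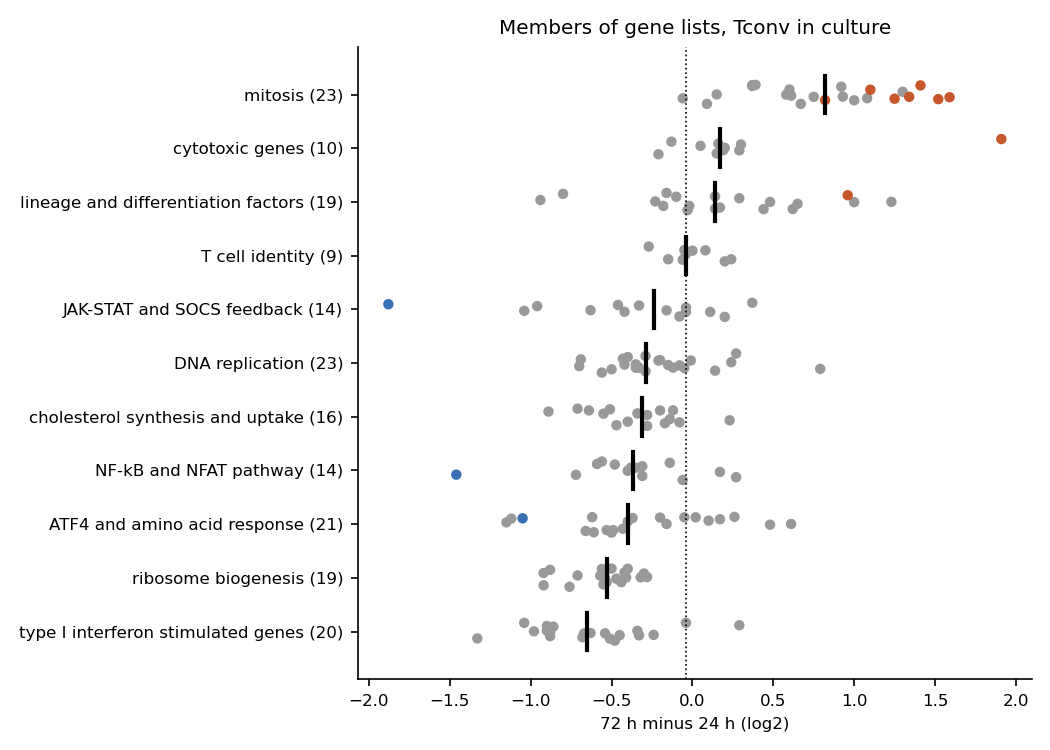
Difference between 72 h and 24 h in log2 units for the tested members of 11 gene lists in Tconv in culture (number of genes in brackets), with called genes in orange (higher) or blue (lower), other members in grey, a black bar at each list's median and a dotted line at the median of all genes tested, -0.04. The mitosis list lies furthest to the right with a median of 0.82, and the interferon-stimulated and ribosome biogenesis lists furthest to the left with medians of -0.65 and -0.53.

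The cholesterol, respiratory chain, glycolysis, unfolded protein response and hypoxia lists held 0 called genes in the limma fit. At an unadjusted p under 0.05 there were 3 lower cholesterol genes, 1 lower respiratory chain gene, 1 higher glycolysis gene, 2 lower unfolded protein response genes, and 2 higher and 1 lower hypoxia gene. The 16 tested cholesterol synthesis and uptake genes had a median of -0.31 and 9 that lay lower on both 72 h arrays (21.9% of all genes tested), with the sterol demethylase gene Cyp51 at 7.70 and 8.03, then 6.74 and 7.20 (-0.89 ± 0.29, adjusted p = 0.356). The 23 respiratory chain genes had a median of -0.14, with 12 lower and 0 higher without overlap (21.9% and 14.4% of all genes tested). The 18 glycolysis genes had a median of 0.10, and Slc2a3, a glucose transporter, read 8.98 and 8.71, then 9.49 and 9.47 (0.64 ± 0.18, adjusted p = 0.204). The 15 unfolded protein response genes had a median of -0.26, led by the chaperone cofactor gene Sdf2l1 (-0.77 ± 0.21, adjusted p = 0.171). The 17 genes of the hypoxia response had a median of 0.20.

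Lists of resting and of T cell receptor genes had medians near that of all genes. The 23 quiescence and lymphoid homing genes had a median of -0.12, with Igfbp4 the only called member. Of the 23, 10 lay lower and 5 higher on both 72 h arrays (21.9% and 14.4% of all genes tested). The 20 tested genes of the receptor complex and its proximal signalling had a median of 0.02, where the adaptor gene Sh2d1a read 7.53 and 7.91, then 8.74 and 8.77 (1.04 ± 0.39, adjusted p = 0.538). The 18 tested Treg signature genes had a median of -0.06, with 7 lower and 4 higher without overlap. The 20 annexin, S100 and cytoskeleton genes differed from -0.79 to 0.66. Among them Anxa6 read 11.58 and 11.26, then 10.79 and 10.46 (-0.79 ± 0.22, limma adjusted p = 0.193).

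Across all genes, the step of Tconv in culture was compared with the other steps by tests of the difference. In Treg in culture 692 genes were called between 24 h and 72 h (5.57%), 443 higher and 249 lower. The steps of Tconv and Treg differed in 224 genes (1.8%), of which 194 (1.56%) were lower in Tconv, and 30 (0.241%) higher. In Tconv in vivo 194 genes were called (1.56%), 14 higher and 180 lower. The steps in culture and in vivo differed in 99 genes (0.797%), of which 94 (0.757%) were higher in culture and 5 (0.0402%) lower. Without the block the counts of 224 and 99 were 128 and 67. With the filter on the 4 arrays compared they were 139 (120 lower in Tconv) and 72 (68 higher in culture). Of the 224 genes 64, and of the 99 genes 21, were below the array median on all 4 arrays and passed the filter only through other groups.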

How the data were processed

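Sorted Tconv and Treg were profiled on Affymetrix ST1.0 arrays. The deposited table holds linear intensities, from 4.8403 to 29756.3596, which the authors made with RMA in GenePattern per the series' design text and with Affymetrix Power Tools and RMA per the submitters' processing notes. Neither versions nor the set of arrays normalized as one is given in the sources used here. The background step of RMA compresses changes of dim genes.

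Of the 24922 transcript clusters 21425 had 1 symbol in the platform's gene table, 1399 several and 2098 were not listed there. Of the clusters with 1 symbol 21347 were matched by Entrez ID to RefSeq and 0 symbols were updated. For the 921 of 19752 symbols with several clusters the one of highest mean was kept. Testing was limited to 12425 genes that exceeded the median of their array on 2 or more of the 42 arrays, which left out 7327 dim ones.

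Values were taken to log2 with no offset and fitted with limma 3.58.1 (R 4.3.3) as 22 group means over 42 arrays, with array number as a block (one effect in culture, one in vivo), which left 18 residual and 5.72 prior degrees of freedom. Tests were two-sided. The number of arrays, 2 per time, limits the precision. Other software was pandas 2.3.3, numpy 2.4.6 and matplotlib 3.10.9 under Python 3.11.15. The script was tested on simulated data.

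The pairing by number defines the comparison, and the labels give same-numbered culture arrays one sex and age. Deviations from the group means correlated at 0.58 between the 24 h and 72 h Tconv arrays of a number, and at -0.45 to 0.71 over the other pairs of culture groups, so that not all numbers deviated together. The fit without the block is given beside the calls it changes.

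Genes were named by rule: the 15 called genes of largest rise and of largest fall (12 were called) whose groups do not overlap, up to 4 called members of each list or else the member of largest change, Foxp3, Cd4, Cd3e, and the 4 called genes at each end of both differences between steps. The remaining called genes and the other uncalled genes in the text were chosen after their values were seen. The 47 lists hold 697 genes, of which 599 were tested, 49 were dim and 49 had no cluster with 1 name. The comparison and lists were chosen with earlier results of these data known, so that no list is independent support. Alternatives were other normalizations, filters and offsets, the fit without the block, fewer arrays, and leaving out each array.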

Additional observations from a re-analysis of the deposited data

Results flagged for a closer look

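Each gene here had a step from 24 h to 72 h in Tconv in culture that differed, by the test of the difference in the limma fit, from the step in Treg in culture or in Tconv in vivo. They are the genes with the largest such differences, and no explanation was weighed for them. Treg and in vivo levels are log2 intensities of the arrays numbered 1 and 2.

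Against Treg in culture, 4 genes had the largest positive differences. The chemokine gene Cxcl10 read 6.73 and 8.03, then 6.41 and 6.81 in Tconv, against 9.67 and 9.99, then 6.75 and 6.60 in Treg, a difference between the steps of 2.38 ± 0.61 (adjusted p = 0.038). The call on Cxcl10 was lost without the block (adjusted p = 0.135), after quantile normalization (0.118) or median centring (0.0577), with culture arrays only (0.141), and without each of the arrays compared except the 24 h Tconv array numbered 2, with the difference as low as 1.65 and adjusted p up to 0.375. Myb differed by 2.15 ± 0.38 (adjusted p = 0.0019). Gpr83, a receptor gene high in Treg, read 7.80 and 7.92, then 7.26 and 6.92 in Tconv, against 11.41 and 11.17, then 8.37 and 8.43 in Treg, a difference of 2.11 ± 0.31 (adjusted p = 0.000392). Tnfsf8, the ligand of CD30, had a step of 0.13 in Tconv and -1.90 in Treg, a difference of 2.03 ± 0.49 (adjusted p = 0.0272, and 0.0745 without the block). The call on Tnfsf8 was also lost after quantile normalization (0.0544) or median centring (0.0905), with culture arrays only (0.183), and without each of the arrays compared except the 24 h Treg array numbered 2, with the difference as low as 1.55 and adjusted p up to 0.293. For Cxcl10, Gpr83 and Tnfsf8 the Treg arrays moved and the Tconv step was not called, while for Myb it was the Tconv step that was called.

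At the other end were 4 genes of mitosis. All 4 lay below the array median (6.56 to 6.71) on each of the 4 Tconv arrays and passed the filter only through other groups. Of the 224 genes that differed from Treg 64 were dim in this way, and with the filter on the 4 arrays 139 were called. Cenpe read 4.92 and 4.51, then 4.48 and 5.24 in Tconv, against 4.87 and 4.87, then 7.98 and 8.17 in Treg, a difference of -3.06 ± 0.52 (adjusted p = 0.00147). The spindle gene Hmmr had steps of 0.62 and 3.62 (difference -3.0 ± 0.36, adjusted p = 0.000116). The checkpoint kinase gene Bub1 had steps of 0.37 and 3.36 (difference -2.99 ± 0.51, adjusted p = 0.00147). The kinetochore gene Knl1 had steps of 0.57 and 3.48 (difference -2.91 ± 0.56, adjusted p = 0.0039).

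Against Tconv in vivo, 4 genes of division or chromatin were at the positive end. The histone gene H2ac4 read 4.85 and 4.59, then 6.01 and 5.76 in culture, against 8.12 and 7.34, then 5.48 and 5.12 in vivo, a difference of 3.60 ± 0.44 (adjusted p = 6.98e-05). H2ac4 too was below the array median on all 4 culture arrays and passed the filter only through other groups, as did 21 of the 99 genes that differed from in vivo. Pclaf differed by 3.55 ± 0.49 (adjusted p = 0.000178), Kif2c by 3.04 ± 0.38 (adjusted p = 7.9e-05) and H1f5 by 2.97 ± 0.45 (adjusted p = 0.000498). In each of these 4 the in vivo level fell while the culture level was higher at 72 h.

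At the negative end, Cish differed by -2.35 ± 0.31 (adjusted p = 0.000139) and Igfbp4 by -1.98 ± 0.40 (adjusted p = 0.00867). Socs2, a feedback inhibitor of cytokine signalling that was likewise dim on all 4 culture arrays, read 5.69 and 5.44, then 5.46 and 5.50 in culture, against 5.48 and 5.31, then 6.71 and 7.17 in vivo, a difference of -1.62 ± 0.35 (adjusted p = 0.0163). Bcl2l1 differed by -1.44 ± 0.30 (adjusted p = 0.0127). Single arrays decided 3 of these calls, which Igfbp4, Bcl2l1 and Socs2 lost without some of the arrays compared, with differences of -1.77 to -1.84, -1.32 to -1.49 and -1.30 to -1.65.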

How the results depend on the processing

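Over the alternatives run, the count of genes changed between 24 h and 72 h ranged widely around 34. It was 13 with no replicate block, 3 with culture arrays only, 115 without the Tconv 0 h culture array numbered 1, and 4 to 22 when each of the 4 arrays was left out. In fits added after the data were seen it was 177 without the 3 culture arrays of narrowest range and 11 with the Tconv culture arrays other than 0 h alone. The count of genes whose step differed from Treg was 224, against 128 with no replicate block, 139 with the filter on the 4 arrays, 103 with culture arrays only, 369 without the 0 h array, 517 without the 3 arrays of narrowest range, and 88 to 224 when each array was left out. The count that differed from in vivo was 99, against 67 with no replicate block, 156 without those 3 arrays, and 65 to 98 when each array was left out. Counts under the remaining alternatives lay within 1.5 times, where culture arrays alone can give no in vivo value. Of the values of named genes in the step, 732 kept direction and side of the threshold, 150 lost the call and 15 gained it. Signs turned in 7 values, all of genes never called, when 1 of the 4 arrays was left out: the ranges over those fits were -0.03 to 1.34 for Bnip3, -0.47 to 0.08 for Cd8a, -0.05 to 1.43 for Xist, -0.23 to 0.16 for Foxp3, -0.10 to 0.02 for Cd4 and -0.14 to 0.02 for Cd3e. The cause was not tested. Dim genes, such as Kif2c at 24 h, are limited by their signal over background.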
